A study of Homo sapiens with 6 samples.

Results

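Collagen chain genes were taken as the protein-coding genes of GENCODE 29 whose symbol is COL, a number, A and a number, and 44 of them were found among the 56982 genes listed in both deposited expression tables. They were sorted into 11 fibrillar chains, 9 network-forming chains, 5 chains of the beaded-filament class, 10 fibril-associated chains with interrupted helices (FACIT), 4 transmembrane chains and 5 chains outside these classes (COL7A1, COL15A1, COL18A1, COL26A1 and COL28A1). Levels were measured by poly(A) RNA sequencing in U2OS, a human osteosarcoma line, with 3 wild-type (WT) libraries and 3 from an edited line named G3C2, labelled ZFP36L1 deficient after CRISPR/Cas9 targeting, a deficiency that the labels report as checked by sequencing and western blot. Both genotypes were sampled in log phase at 65 to 75% confluency, in serum-containing DMEM. ZFP36L1 is an RNA-binding protein that shortens the life of mRNAs carrying AU-rich elements. All edited libraries carry the name of 1 clone, so an effect of the genotype and one of the clone cannot be told apart. Replicate 1 of each genotype was deposited in a first table and the pairs b and c in a second, on separate scales, and each difference is therefore taken within a table. The labels do not tie a library to its culture, so the p-values measure only how much these libraries vary, which may be technical.

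A collagen molecule is made of 3 chains wound into a triple helix, which requires glycine at 1 residue in 3 of the helical part. Fibrillar collagens such as types I, III and V form the banded fibrils of bone, skin and tendon, and osteoblasts secrete type I collagen as the main protein of bone matrix. Type IV collagen forms the sheet of basement membranes, type VI forms beaded microfibrils, FACIT chains sit on the surface of fibrils, and transmembrane collagens are held in the cell membrane.

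The glycine repeat can be read in the coding sequence. Its longest unbroken run was longer in every fibrillar chain than in any chain of the other classes. The classes are themselves named in part for their helix, as in interrupted helices, so this describes the classes and is no independent support for them. The first 72 bases of the longest unbroken repeat of both type I chains are printed to make the repeat visible, read from the GENCODE 29 transcripts with the longest coding sequence. Capitals mark the GGN codons, which encode glycine, 1 codon in 3, starting at codon 179 of COL1A1 and codon 91 of COL1A2.

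COL1A1: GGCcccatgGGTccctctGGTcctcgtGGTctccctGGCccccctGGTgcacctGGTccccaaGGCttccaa

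COL1A2: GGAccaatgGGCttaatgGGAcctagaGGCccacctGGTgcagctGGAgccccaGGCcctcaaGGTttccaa

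This repeat ran for 338 triplets of codons without a break in COL1A1 and for 339 in COL1A2. Over the 11 fibrillar chains the longest run was between 216 triplets (COL24A1) and 343 (COL3A1). It was between 38 and 66 in the 9 network chains, between 32 and 113 in the 10 FACIT chains, between 37 and 87 in the 5 beaded chains and between 43 and 55 in the 4 transmembrane chains. The type IV chains held as much repeat as the fibrillar ones in smaller pieces. COL4A1 had 437 triplets in 22 runs of 5 or more, and COL1A1 had 355 in 2 runs.

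The 3′ untranslated regions were searched for TATTTAT, a 7-base form of the AU-rich element, on the transcript strand. The longest annotated region of 17 of the 44 collagen genes held it (38.6%), against 31.0% of 19052 protein-coding genes. Among the genes that entered the test it was 8 of 23 collagen genes (34.8%, median length 1322 bases) and 35.9% of 12096 genes (median 1387 bases), so the collagen genes held the element about as often as other expressed genes. A match is a description and not a measured binding site. Sites of 6 tested genes are printed with 10 bases on each side and the element in capitals, since ZFP36L1 is the edited gene. COL5A2 had 3 sites, of which 2 are printed. The remaining 2 tested genes with the element were COL4A4 and COL4A2, and in COL4A2 it lay only in a transcript that ends inside the gene.

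COL5A2 (chromosome 2, minus strand, GRCh38, 189033724 to 189033730): agttgcttagTATTTATgaggaaattc

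COL5A2 (189032088 to 189032094): taaatttgagTATTTATatgcctaaat

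COL3A1 (chromosome 2, plus strand, 189011877 to 189011883): aaattccagtTATTTATttccaaaatg

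COL11A1 (chromosome 1, minus strand, 102877030 to 102877036): attaagcaatTATTTATgaatttgtgc

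COL12A1 (chromosome 6, minus strand, 75085480 to 75085486): gtaacttatcTATTTATagttatgaga

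COL12A1 (75084373 to 75084379): tgccttatatTATTTATttctgaaaca

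COL13A1 (chromosome 10, plus strand, 69958747 to 69958753): gtacatagaaTATTTATttttatacag

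COL8A1 (chromosome 3, plus strand, 99796515 to 99796521): tactttaaaaTATTTATaaatatgcct

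COL8A1 (99797082 to 99797088): atttgtggaaTATTTATttgtaatagc

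COL8A1 (99798476 to 99798482): tgtaaaattgTATTTATctgtacatgt

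COL8A1 (99798577 to 99798583): tcttccaactTATTTATtggttgtcac

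Of these 6 genes COL5A2 alone was higher in the clone in all 3 replicates, beside 17.8% of all tested genes, and none was lower in all 3. Of the remaining 2, COL4A4 was lower in all 3, beside 18.6% of all tested genes, and COL4A2 changed side. Whether the element has a part in the differences was not tested. COL1A1, COL16A1 and COL22A1, whose values are given further on, held no TATTTAT.

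The series as a whole is described here in brief. The second table carried between 22600000 and 28960000 recovered reads per library, and that of the first could not be recovered. ZFP36L1 mRNA itself was at 165, 57.1 and 128 FPKM in the WT libraries 1, b and c and at 238, 105 and 82.4 in the clone (limma adjusted p = 0.752), and the transcript level does not check an edit that can act on the protein. Of the osteoblast markers, SPARC was between 191 and 908 FPKM and RUNX2 between 6.41 and 46.4, whereas IBSP was listed at 0 in all 6 libraries and SP7 in 5 of 6, so U2OS showed only part of the osteoblast set. The blood marker CD3E was listed at 0 throughout, and the blood markers summed to at most 0.444 FPKM in any library. The endothelial markers summed to between 0.233 and 1.98 FPKM. Of the epithelial markers, EPCAM was between 3.05 and 18.7 FPKM and KRT14 between 0.194 and 6.30. CDH1 was at or below 1.01 FPKM and KRT5 at or below 0.364. Mitosis genes, 8 in the list, had median differences of 0.02, -0.27 and 1.38 for replicates 1, b and c on the log2(FPKM + 1) scale, and their part in the collagen values below was not tested.

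Collagen RNA was concentrated in a few chains. COL1A1 had the highest FPKM of the collagen genes in all 6 libraries. Its part of the summed collagen FPKM was 22.9%, 18.5% and 24.5% in the WT libraries 1, b and c. In the clone it was 52.9%, 34.2% and 38.0%. FPKM are scaled by a gene length and a read total of the library, so a ranking of genes within a library depends on the lengths used. The exon length was 9819 bases for COL1A1 and 19293 for COL4A2. In WT b and c COL4A2 had 24507 and 46608 rounded reads, and COL1A1 had 23929 and 45856. In clone b and c COL4A2 had 24171 and 17822, and COL1A1 had 64680 and 42541. In the second table the values implied totals of 29670000 (WT b), 25410000 (WT c), 26520000 (clone b) and 22560000 (clone c). The recovered reads were 28960000, 22600000, 26080000 and 25830000 in that order. In replicate c the total was thus above the recovered reads in WT and below them in the clone. Whether this has a part in the differences was not tested. Between 10 and 15 of the 44 genes reached 10 FPKM in a library, and between 20 and 22 reached 1 FPKM. The chains with at least 20 FPKM on average in a table were COL1A1, COL5A1, COL5A2 and COL11A1 of the fibrillar class, COL4A1, COL4A2 and COL8A1 of the network class, COL6A1 and COL6A2, and the FACIT chains COL12A1, COL16A1 and COL9A2. All collagen genes together took 0.130%, 0.168% and 0.319% of the summed FPKM in WT and 0.238%, 0.280% and 0.158% in the clone, for replicates 1, b and c. In pairs 1 and b the clone held the larger collagen share, and in pair c the smaller.

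**Figure D1:**
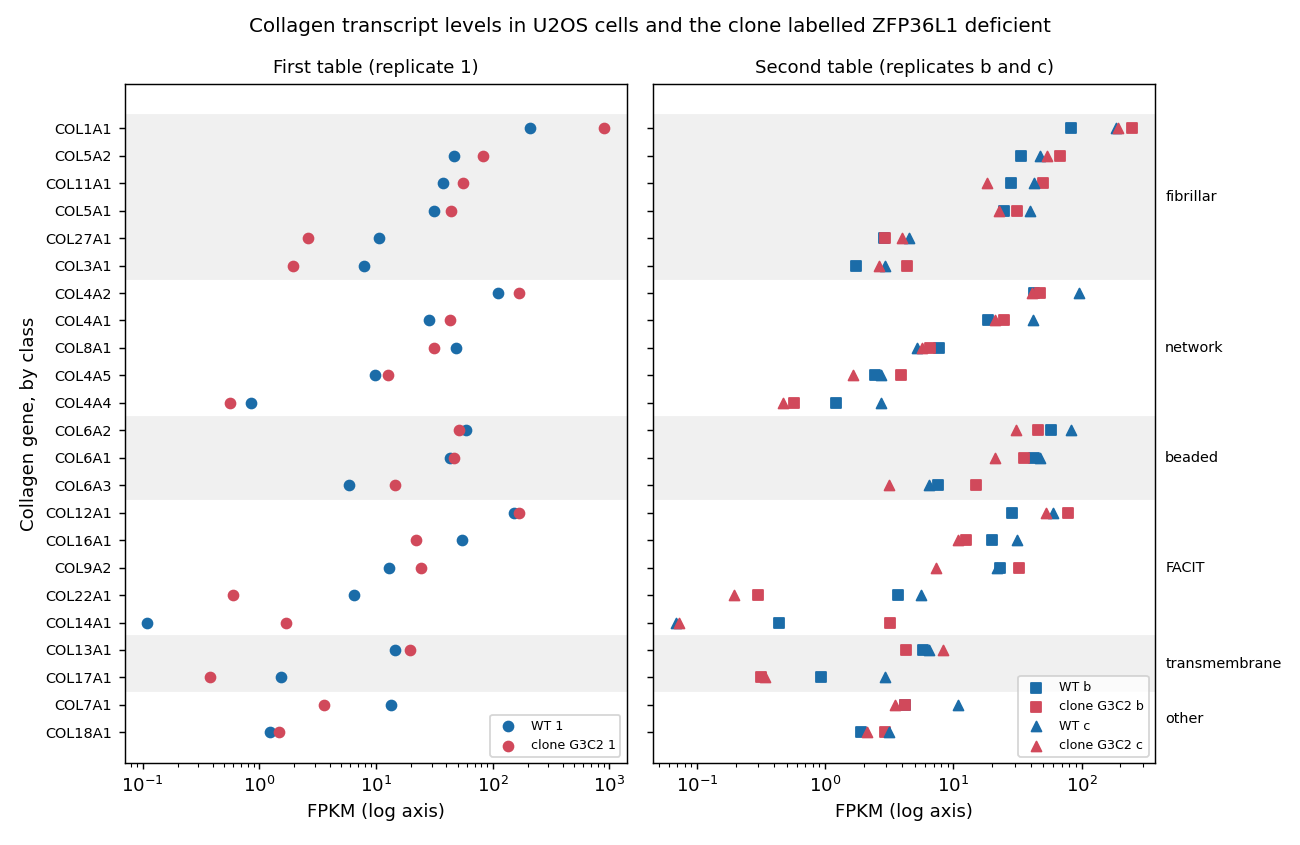
FPKM on a log axis of the 23 tested collagen genes, ordered by class, for the first table (replicate 1, left) and the second table (replicates b and c, right). Blue marks WT, red the clone, and each point is 1 library. COL1A1 is the rightmost point in all 6 libraries, and the red points of COL22A1 lie left of the blue ones in both tables.

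The clone was compared with WT for transcripts whose level differs between them. Of the 44 collagen genes, 23 passed the filter on low values (2 or more libraries at 1 FPKM or above), and 21 did not and were not tested. After adjustment over all 15001 tested genes, COL22A1 was called lower and no collagen gene was called higher. Over all genes 0.0267% were called lower and 0.02% higher. At an unadjusted p under 0.05, 2 collagen genes were higher (COL1A1 and COL5A2), against 6.19% of all genes, and 6 were lower (COL16A1, COL22A1, COL6A2, COL4A4, COL7A1 and COL17A1), against 7.43% of all genes. In the same direction in all 3 replicates, 3 of 23 were higher, with a background of 17.8%, and 5 of 23 were lower, with a background of 18.6%. Of these 8 genes COL14A1 passed the filter only through clone libraries and COL22A1, COL4A4 and COL17A1 only through WT libraries, the side on which each was high, so their directions were favoured by the filter. The median log2 fold change of the 23 genes was -0.04, beside 0.01 for all tested genes. The collagen genes thus held both directions, and the values by class follow.

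COL22A1 (ENSG00000169436, chromosome 8, 138588235 to 138914006, minus strand, GRCh38), a FACIT chain known from tissue junctions such as those of muscle and tendon, fell in the clone. Its level was 6.46, 3.68 and 5.56 FPKM in the WT libraries 1, b and c and 0.598, 0.299 and 0.192 in the clone. Every clone library was below every WT library. The clone held a fraction of 0.0924, 0.0810 and 0.0346 of the WT level, and the log2 fold change over the 3 libraries of each genotype was -2.18 (SE 0.17, limma adjusted p = 0.0308). In the second table the deposited values corresponded to 856 and 1107 reads in WT b and c and 62 and 34 in the clone. The reads alone give a ratio of 0.0810 (95% interval 0.0616 to 0.105) for replicate b and 0.0346 (0.0238 to 0.0486) for replicate c, from the exact binomial interval, which covers counting error only. COL22A1 passed the filter through its WT libraries alone, and with no filter its limma adjusted p was 0.395. With the replicate label as a block the adjusted p was 0.0828, and it was between 1.79e-05 and 1 over the alternatives. Without WT replicate b it was 0.0592, without WT replicate c 0.200, without clone replicate b 0.241 and without either library of replicate 1 between 0.589 and 0.625.

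COL22A1 was the single collagen gene that differed by at least 1 on the log2(FPKM + 1) scale in 1 direction in all 3 replicates. Over all tested genes 0.32% were lower by that much in all 3 and 0.233% were higher. COL16A1 (ENSG00000084636, chromosome 1, 31652247 to 31704319, minus strand), another FACIT chain, came closest. It had 54.8, 19.8 and 31.5 FPKM in WT and 22.0, 12.4 and 10.8 in the clone. Within each table both genotypes were separate, with every clone library below every WT library. Its log2 fold change was -1.13 (SE 0.21, limma adjusted p = 0.136), which did not pass. It passed (limma adjusted p = 0.0202) when pair c was left out, a fit with a single residual degree of freedom that called 457 genes lower.

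Of the other FACIT chains, COL12A1 and COL9A2 did not keep a direction. COL12A1, a large chain of fibril surfaces, was second by FPKM among the collagen genes in both libraries of replicate 1. It had 153, 28.4 and 59.5 FPKM in WT and 168, 77.7 and 53.0 in the clone. The groups overlapped in the second table, and the log2 fold change was 0.46 (SE 0.32). COL9A2, a chain of the cartilage collagen IX, had 12.9, 23.1 and 21.7 FPKM in WT and 24.3, 32.4 and 7.30 in the clone, so the clone library of replicate c was the lowest and that of replicate b the highest. Its partners COL9A1 and COL9A3 were at or below 0.289 FPKM, and COL9A1 was listed at 0 in all 6 libraries. COL14A1 had 0.110, 0.433 and 0.0683 FPKM in WT and 1.70, 3.20 and 0.0718 in the clone. The clone stood 15.4-fold and 7.39-fold above WT in replicates 1 and b, and in replicate c 15 and 14 reads were recovered, a ratio of 1.05 (95% exact interval 0.470 to 2.34). COL14A1 was thus higher in all 3 replicates, in c by less than the counting error. COL19A1, COL20A1 and COL21A1 stayed at or below 0.502 FPKM.

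Of the fibrillar chains, COL1A1 and COL5A2 were higher in the clone in all 3 replicates without passing the adjusted threshold. COL1A1 (ENSG00000108821, chromosome 17, 50183289 to 50201632, minus strand) encodes the alpha 1 chain of type I collagen. Its FPKM in WT was 209, 82.1 and 184, and in the clone 899, 248 and 192. The ratios were 4.30, 3.02 and 1.04 in the order of the labels 1, b and c, and clone replicate c lay just above WT replicate c. By rank among the 15001 tested genes COL1A1 was number 547, 467 and 95 in WT and number 87, 97 and 234 in the clone. The log2 fold change was 1.25 (SE 0.41, limma adjusted p = 0.278). Leaving out pair c, where the ratio was 1.04, it was 1.84, in a fit with a single residual degree of freedom. COL1A1 then passed (limma adjusted p = 0.0020), as did COL5A2. That fit called 448 genes higher and 457 lower, against 3 and 4 with all libraries.

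COL5A2, the alpha 2 chain of type V collagen, which is built into type I fibrils, had 46.9, 33.5 and 47.4 FPKM in WT and 82.8, 67.9 and 53.5 in the clone. Within each table every clone library was above every WT library, and the log2 fold change was 0.66 (SE 0.20, limma adjusted p = 0.250). Its partner COL5A1 had 31.2, 24.8 and 39.6 FPKM in WT and 44.0, 31.3 and 22.6 in the clone, with a log2 fold change of 0.01 (SE 0.27) that was negative with the second table alone, with quantile normalization and with limma-voom. COL11A1, a chain of the fibril-nucleating type XI, had 37.6, 28.0 and 42.7 FPKM in WT and 55.2, 49.9 and 18.4 in the clone, and its log2 fold change of 0.06 (SE 0.40) turned negative under the same settings. In the second table the clone library of replicate b was the highest and that of replicate c the lowest for COL11A1.

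Of the remaining fibrillar chains, COL3A1 and COL27A1 are given by table. COL3A1, which encodes type III collagen, was at 7.91, 1.74 and 2.92 FPKM in WT and at 1.94, 4.37 and 2.62 in the clone. COL27A1 was at 10.7, 2.86 and 4.51 in WT and at 2.63, 2.93 and 3.98 in the clone. For both genes the clone was far below WT in the first table and not in the second. The genotype differences of the tables lay 2.03 apart for COL3A1 and 1.63 apart for COL27A1 on the log2 scale, which did not pass (limma interaction, adjusted p = 0.948 for both). The first table has 1 library per genotype, which this test assumes to vary like those of the second. COL2A1, COL11A2, COL24A1, COL5A3 and COL1A2 were below the filter.

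The fibrillar class made up a larger part of the summed collagen FPKM in the clone in every replicate. Its own sum was 345.8, 173.5 and 321.9 FPKM in WT and 1087, 406 and 294.5 in the clone, so it was lower in pair c. In pair c the network, beaded and FACIT sums were 148, 136 and 119 in WT and 70.2, 54.8 and 71.5 in the clone. Its share of summed collagen FPKM was 37.85%, 39.1% and 42.9% in WT and 64.0%, 56.0% and 58.2% in the clone. No clone library overlapped with WT. Leaving out COL1A1, the share was 19.4%, 25.3% and 24.4% in WT and 23.5%, 33.0% and 32.7% in the clone, again higher in the clone within each table. With 3 libraries against 3 a two-sided exact permutation test cannot give a p below 0.1, and none was run on these shares. In the same libraries the median differences of the 6 tested fibrillar genes were 0.51, 0.89 and -0.13 for replicates 1, b and c.

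Type I collagen is normally a trimer of 2 alpha 1 chains and 1 alpha 2 chain, and U2OS libraries held almost no mRNA for the second. COL1A2 (ENSG00000164692, chromosome 7, 94394561 to 94431232, plus strand) had 0.0593, 0.0242 and 0.0141 FPKM in WT and 0.521, 0.277 and 0.211 in the clone. In reads of the second table this was 8 and 4 in WT and 82 and 53 in the clone. The ratio of clone to WT was 8.80 in replicate 1, 11.5 in replicate b (95% exact interval 5.55 to 27.4) and 14.9 in replicate c (5.50 to 56.8), and the intervals cover counting error only. COL1A2 was below the filter. A limma-voom fit to the recovered reads of the second table, chosen after the values were seen, took in the 17896 genes with at least 10 reads in at least 2 libraries, and COL1A2 entered it only through the clone, where it was high, so its value there is not given. That fit called 0.0447% of genes lower and 0.00559% higher, and of its 35 collagen genes it called COL22A1 alone (lower, limma adjusted p = 0.0299), which had more than 10 reads in all 4 libraries. COL1A1 exceeded COL1A2 by 3523, 3398 and 13020 times in WT and by 1724, 896 and 912 times in the clone, so even the clone libraries were far from a ratio of 2 to 1.

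Chains of 1 molecule can be compared within a library, where the read total of the library drops out. The gene lengths used do not drop out, and whether they were the same in both tables is not known. The ratio of COL5A1 to COL5A2 was 0.666, 0.739 and 0.835 in WT and 0.532, 0.460 and 0.422 in the clone. It was lower in the clone in all 3 replicates, and no clone library reached the lowest WT library. COL6A1 to COL6A2 was 0.721, 0.726 and 0.576 in WT and 0.905, 0.778 and 0.690 in the clone, higher in the clone in all 3 replicates, though clone replicate c was below WT replicate b. COL4A1 to COL4A2 was 0.257, 0.436 and 0.440 in WT and 0.259, 0.524 and 0.516 in the clone. Between the tables this ratio differed more than between genotypes. COL4A5 to COL4A6 was 43.4, 14.3 and 12.6 in WT and 75.4, 28.1 and 49.3 in the clone, with COL4A6 at or below 0.226 FPKM. COL6A3 to COL6A1 was 0.137, 0.180 and 0.136 in WT and 0.309, 0.425 and 0.150 in the clone, with clone replicate c among the WT values. COL8A1 to COL8A2 was 2819, 32.2 and 29.1 in WT and 73.6, 10.3 and 50.3 in the clone, without a common direction. COL8A2 was low, at 0.0171 FPKM in WT replicate 1 and at 21 and 12 reads in WT and clone replicate c. The 7 ratios were described and not tested.

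**Figure D2:**
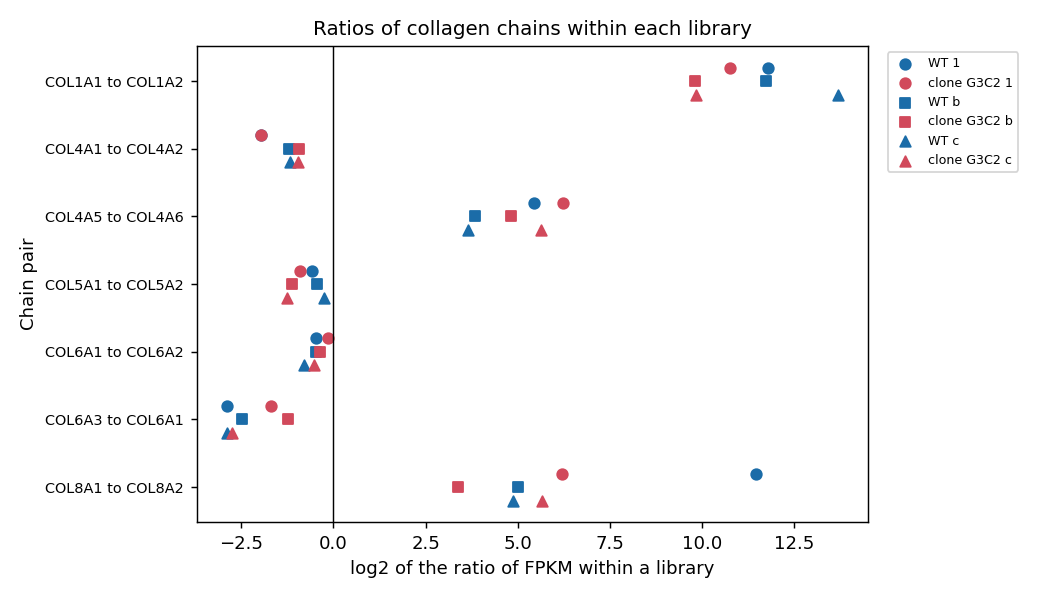
Log2 of the FPKM ratio of 7 chain pairs within each of the 6 libraries, with blue for WT, red for the clone and the marker shape for the replicate label. A value of 0 means equal levels. COL1A1 exceeds COL1A2 by more than 9 log2 units in every library, and the red points of COL5A1 to COL5A2 lie left of the blue ones.

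Of the network chains, those of the common type IV molecule, COL4A1 and COL4A2, kept step with each other while their direction changed with the replicate. COL4A1 had 28.6, 18.7 and 41.9 FPKM in WT and 43.3, 24.8 and 21.2 in the clone. COL4A2 had 111, 42.8 and 95.1 in WT and 167, 47.2 and 41.0 in the clone. The differences on the log2(FPKM + 1) scale were 0.58, 0.39 and -0.95 for COL4A1 and 0.58, 0.14 and -1.20 for COL4A2. In the second table WT replicate c was far above the other 3 libraries for both genes. The log2 fold changes were 0.01 (SE 0.34) and -0.16 (SE 0.37), and that of COL4A1 was negative with the second table alone, with quantile normalization and with limma-voom.

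These neighbours on chromosome 13 are transcribed away from each other, and the 126 bases between their RefSeq starts (GRCh38.p14, chr13:110307158-110307283, plus strand) are shown because both genes share them. Capitals mark CCAAT and the GC box GGGCGG, each searched on both strands, and TATAAA was searched and not found in this stretch.

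COL4A1 to COL4A2: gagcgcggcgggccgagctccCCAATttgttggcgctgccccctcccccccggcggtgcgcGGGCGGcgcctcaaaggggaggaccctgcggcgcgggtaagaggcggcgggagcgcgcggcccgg

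Of the RefSeq promoter windows (250 bases before to 50 after a start), 32 collagen genes had 44. GGGCGG was in 54.5% of these and in 45.0% of all 35116 windows, CCAAT in 31.8% and 34.6%, and TATAAA in 18.2% and 11.5%. COL4A1 and COL4A2 also overlap in GENCODE 29, and without a stated strand setting reads in the overlap cannot be assigned to 1 of them.

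COL4A4, a chain of the type IV molecule of kidney and ear, had 0.853, 1.22 and 2.71 FPKM in WT and 0.556, 0.573 and 0.471 in the clone. It was lower in the clone in all 3 replicates, with a log2 fold change of -0.69 (SE 0.25, limma adjusted p = 0.316). COL4A5 had 9.81, 2.45 and 2.72 FPKM in WT and 12.8, 3.88 and 1.65 in the clone, with overlap in the second table. COL8A1, a short chain that forms hexagonal networks, had 48.1, 7.68 and 5.15 FPKM in WT and 31.6, 6.5 and 5.73 in the clone (log2 fold change -0.22, SE 0.20). COL4A3 and COL10A1 were at or below 0.279 FPKM, and COL8A2 at or below 0.630.

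Of the beaded class, COL6A1 and COL6A2, the short chains of the type VI trimer, stood near each other and were lowest in clone replicate c. COL6A1 had 42.9, 42.1 and 47.4 FPKM in WT and 46.9, 35.6 and 21.1 in the clone. COL6A2 had 59.4, 58.0 and 82.4 in WT and 51.8, 45.7 and 30.5 in the clone. For COL6A2 every clone library lay below every WT library, with a log2 fold change of -0.65 (SE 0.26, limma adjusted p = 0.356). COL6A3, the long chain of type VI, had 5.86, 7.56 and 6.46 in WT and 14.5, 15.1 and 3.16 in the clone, with ratios of clone to WT of 2.47, 1.998 and 0.489 that changed side in pair c. COL6A5 and COL6A6 were at or below 0.0762 FPKM.

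Of the transmembrane and remaining chains, COL17A1 and COL7A1 are known from the anchorage of epithelium to its basement membrane, and both had lower medians in the clone. COL17A1 had 1.54, 0.934 and 2.90 FPKM in WT and 0.375, 0.317 and 0.338 in the clone. Every clone library was below every WT library, and the log2 fold change was -0.99 (SE 0.27, limma adjusted p = 0.215). COL7A1, the chain of anchoring fibrils, had 13.6, 4.16 and 10.9 FPKM in WT and 3.56, 4.21 and 3.50 in the clone. In pair b both genotypes were at the same level, and the log2 fold change was -1.02 (SE 0.36, limma adjusted p = 0.305). Leaving out pair b, with a single residual degree of freedom, COL7A1 passed (limma adjusted p = 0.0059) in a fit that called 151 genes lower. COL17A1 passed the filter only through WT libraries, and its value there is not read as support. COL13A1 had 14.6, 5.78 and 6.43 FPKM in WT and 19.5, 4.27 and 8.33 in the clone, and COL18A1, the source of endostatin, had 1.23, 1.89 and 3.15 in WT and 1.48, 2.94 and 2.11 in the clone. COL23A1 and COL25A1 were at or below 0.0501 FPKM, COL15A1 at or below 0.853 and COL26A1 at or below 0.481.

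COL28A1 (ENSG00000215018, chromosome 7, 7356203 to 7535853, minus strand) was at 0.398, 0.173 and 0.178 FPKM in WT, and the clone libraries listed it at 0. The reads recovered from WT b and c were 34 and 30, and both clone libraries had 0. Against a floor of 3 reads over both clone libraries, the level was at least 19.0-fold lower in the clone. COL28A1 was below the filter and was named after its values were seen.

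**Figure D3:**
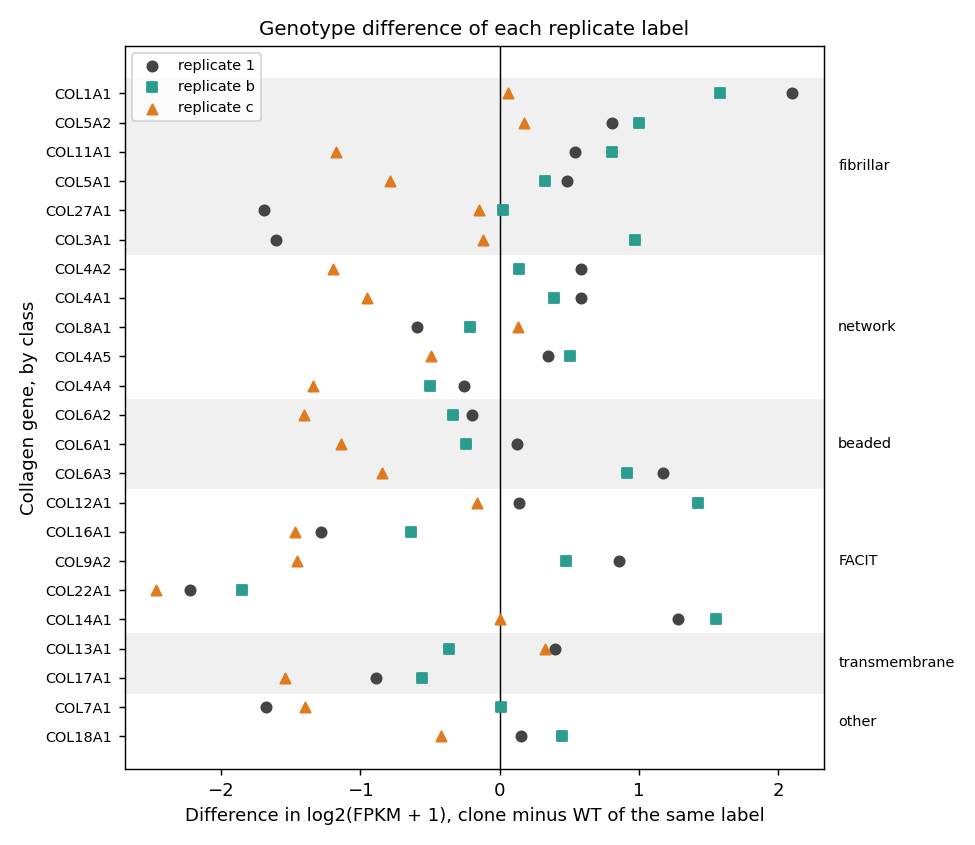
Difference in log2(FPKM + 1), clone minus WT of the same replicate label, for the 23 tested collagen genes by class. Circles stand for replicate 1, squares for b and triangles for c. All 3 points of COL22A1 lie between -2.46 and -1.85, and the triangles of most other genes lie left of their squares.

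The genotype difference of the collagen genes depended on the replicate. In replicate 1, 14 of 23 genes were higher in the clone (median difference 0.15), in replicate b 15 of 23 (median 0.33) and in replicate c 5 of 23 (median -0.84). The medians of all tested genes were -0.08, -0.01 and 0.07. By class the replicate c median was -0.13 for fibrillar, -0.95 for network, -1.14 for beaded and -1.45 for FACIT genes. For 9 of 23 collagen genes the clone was above WT in pairs 1 and b but below it in pair c, a pattern seen in 10.3% of all tested genes.

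Within the second table both genotypes differed between b and c, in opposite directions. WT replicate c was above WT replicate b for 19 of 23 collagen genes (median difference 0.52), and clone replicate c was below clone replicate b for 20 of 23 (median -0.34). For 16 of 23 both held, against 23.8% of all tested genes, whose medians were -0.06 and 0.05. The widest gaps between the WT libraries were those of COL7A1 (1.20) and COL1A1 (1.15), and between the clone libraries those of COL9A2 (-2.01), COL14A1 (-1.97) and COL6A3 (-1.95), all on the log2(FPKM + 1) scale. COL13A1, COL27A1 and COL17A1 were exceptions, with clone replicate c at or above clone replicate b. The pairing of b with b and c with c rests on the labels. In the same libraries the 8 mitosis genes summed to 600 and 345 FPKM in WT b and c and to 501 and 908 in the clone, the opposite order to the collagen genes, and whether this has a part in the collagen values was not tested.

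**Figure D4:**
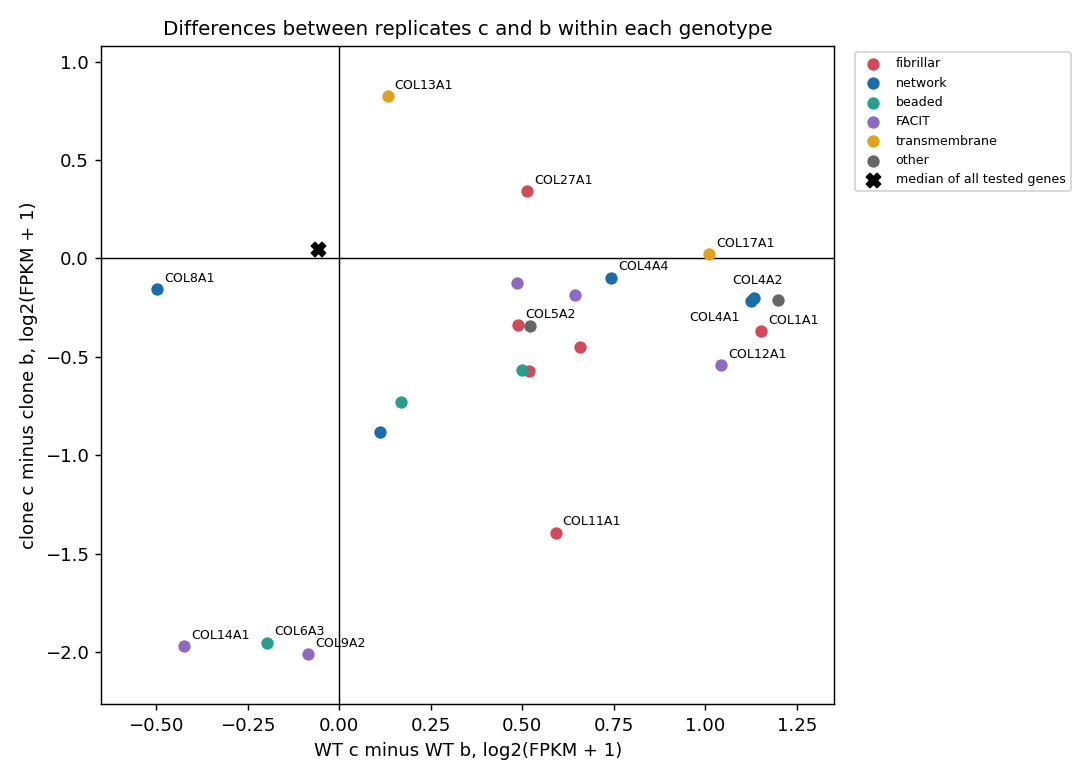
Difference between replicates c and b within WT (horizontal axis) and within the clone (vertical axis), in log2(FPKM + 1), for the 23 tested collagen genes coloured by class. The black cross marks the median of all tested genes (-0.06 and 0.05). Of the 23 genes, 16 lie in the lower right quadrant.

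The tested genes within 5 Mb of each collagen gene were summarised, to show whether its neighbours differed with it. Next to COL1A1 74 tested protein-coding genes had median differences of 0.02, 0.02 and -0.003 in pairs 1, b and c, and next to COL16A1 103 genes had -0.09, -0.03 and 0.15. Next to COL22A1 28 genes had -0.22, 0.12 and 0.05, far from the values of COL22A1 itself. All tested protein-coding genes had -0.07, -0.01 and 0.10. The neighbours of several collagen genes leaned to 1 side. Next to COL6A3 on chromosome 2, 19 of 47 were higher and 3 lower in all 3 replicates. Next to COL4A4, itself lower in all 3, 11 of 32 were lower and 2 higher, and next to COL4A5 on chromosome X, 10 of 25 were lower and 1 higher. Next to COL9A3 and COL20A1, at the end of chromosome 20, 42 of 54 genes were higher in all 3 replicates. Next to COL23A1 on chromosome 5, 46 of 72 were lower in all 3, and next to COL28A1 on chromosome 7, 21 of 44 were, against 18.6% of all tested genes. Whether the neighbours have a part in the values of these collagen genes was not tested.

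The machinery around the chains was listed separately. Of 24 tested genes of collagen folding and export none was called, 3 were higher and 1 lower at an unadjusted limma p under 0.05, and 11 were higher in all 3 replicates against 5 lower, beside the shares of 17.8% and 18.6% given above. The list median was 0.14. P4HB, a subunit of prolyl 4-hydroxylase, had the highest mean over the 6 libraries, though not in the second table by itself, with 444, 137 and 122 FPKM in WT and 498, 144 and 147 in the clone. PLOD2, a lysyl hydroxylase for collagen cross-links, had 101, 21.3 and 24.4 in WT and 174, 38.9 and 48.5 in the clone (log2 fold change 0.86, SE 0.17, limma adjusted p = 0.149). Unlike the 23 tested chains as a set, this list had medians of 1 sign in all 3 replicates (0.13, 0.07 and 0.14). All tested genes had medians of -0.08, -0.01 and 0.07. The trait was not particular to this list. Regulators of collagen transcription had 0.33, 0.14 and 0.15. Fibril-associated proteins (-0.002, -0.06 and -0.81) and collagen receptors (-0.02, -0.05 and -0.515) had negative medians in all 3 replicates.

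Genes of procollagen processing and cross-linking (10 tested, median -0.12), fibril-associated proteins (6 tested, -0.28), collagen receptors (10 tested, -0.09), collagenases and their inhibitors (10 tested, 0.10) and regulators of collagen transcription (16 tested, 0.21) had no member called. ADAMTS2, the protease that removes the amino-terminal propeptide of fibrillar procollagens, had 7.33, 4.89 and 9.90 FPKM in WT and 3.52, 1.37 and 0.864 in the clone (log2 fold change -1.58, SE 0.32, limma adjusted p = 0.156). It was lower in the clone in all 3 replicates. ADAMTS3, another procollagen N-proteinase, had the opposite sign, with 16.5, 4.85 and 4.13 FPKM in WT and 26.9, 8.14 and 8.09 in the clone (log2 fold change 0.71, SE 0.13, limma adjusted p = 0.136). ADAMTS2, ADAMTS3 and PLOD2 were named after their values were seen. LOXL2, a cross-linking oxidase, had 69.2, 25.2 and 39.3 in WT and 122, 31.8 and 26.8 in the clone. ITGB1, the beta subunit of the collagen-binding integrins, had 1102, 222 and 305 in WT and 1092, 179 and 161 in the clone. SPARC, a collagen-binding protein of bone, had 718, 256 and 271 in WT and 908, 278 and 191 in the clone. TIMP1, an inhibitor of collagenases, had 127, 146 and 206 in WT and 161, 196 and 163 in the clone. For LOXL2, SPARC and TIMP1 the clone was above WT in pairs 1 and b and below it in pair c, the order found for 9 of the 23 tested collagen genes and not for COL1A1. YBX1, a nucleic acid binding protein with a reported part in collagen transcription, had 1851, 929 and 612 FPKM in WT and 1813, 849 and 1388 in the clone, with the clone higher in replicate c alone.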

How the data were processed

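Poly(A) RNA of 6 U2OS libraries, 3 WT and 3 of G3C2, was deposited by the authors as FPKM per gene in 2 tables, per the file headers. CASAVA, HISAT2 and GRCh38.p12 are named in the submitters' processing notes. Counting and strand settings are not given in the sources used here. Groups and replicate labels came from sample titles, symbols and transcripts from GENCODE 29 and promoters from RefSeq.

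Genes listed in both tables with 2 or more libraries at 1 FPKM or above (15001) were tested with limma 3.58.1 (R 4.3.3) on log2(FPKM + 1). The model had terms for genotype and table and a variance trend, and p was adjusted over all tested genes by Benjamini-Hochberg, with a threshold of 0.05. The model was run on simulated data with independent errors and with changes put only into genes of higher level. That run therefore does not check calls of low genes, or data in which b and c differ in opposite directions. The log2(FPKM + 1) scale understates changes of low genes. In the second table between 97.5% and 97.6% of values were whole reads within 0.02 reads, given exon lengths, and in the first between 47.6% and 48.9%. Reads are printed for collagen genes of the second table that came out whole, 39 of 44, and rounded for COL4A2, which did not. Same-labelled libraries deviated together from the group means (r = 0.93 for label 1, 0.80 for b and 0.60 for c) and were treated as paired in the blocked fit, though the separate tables alone can give this, and inside the second table r was -0.17.

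Values are printed for collagen genes that were called, differed by at least 1 in 1 direction in all 3 replicates, had a mean of at least 20 FPKM in either table or are chains of a listed ratio, and for the member of each pathway list with the highest mean over the 6 libraries. Other genes were named after their values were seen. The members, classes and lists were chosen with earlier results of these data known. Alternatives covered the pseudocount, filters, the block, the table term, the second table by itself, scaling, the variance trend, recovered reads and left-out libraries. Python 3.11.15, pandas 2.3.3, scipy 1.17.1 and matplotlib 3.10.9 were also used. Some items are not reported here.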

Additional observations from a re-analysis of the deposited data

How the results depend on the processing

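The crossed block (WT b with clone c) and limma-voom on genes with at least 10 reads were chosen after the data were seen. COL22A1, the 1 collagen gene called lower, kept its direction in every setting. The number of collagen genes called lower was 0 with the replicate block, with limma-voom on the tested genes, with no low-value filter, with a filter at mean FPKM 5 (which removes COL22A1), with no term for table, and in the second table by itself, blocked or not. Over all genes, 3 were called higher and 4 lower. Called higher were 0 in those settings, except at mean FPKM 5, and 5 with equal medians. Called lower were 0 with no filter, with no term for table and in the second table by itself, blocked or not, and 1 with the block and at mean FPKM 5. Genes at an unadjusted limma p under 0.05 still numbered 2909 with no filter, 223 with no term for table, 1110 in the second table and 853 there with the block. The block changed no other collagen call. Collagen genes higher at an unadjusted p under 0.05, against 2, numbered 0 with no term for table, in the second table (blocked or not), with quantile normalization and with limma-voom, and those lower, against 6, numbered 3 at mean FPKM 5 and 2 with no term for table. The causes of these changes in the counts were not tested.

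Leaving out libraries or replicates gave 0 to 448 genes called higher and 0 to 457 lower. For collagen genes it gave 0 to 7 called higher, 0 to 3 lower, 0 to 11 higher and 3 to 7 lower at an unadjusted p under 0.05, and a median log2 fold change between -0.30 and 0.30. The most calls came when pair c was left out, with a single residual degree of freedom. COL14A1, COL9A2, COL6A3, COL11A1, COL1A1, COL5A2 and COL4A1 were then called higher and COL16A1 and COL22A1 lower (limma adjusted p between 0.0020 and 0.0498). Over all 15001 tested genes, 448 were then called higher and 457 lower. COL14A1 passed the filter only through clone libraries and COL22A1 only through WT libraries, so the filter favoured their directions.

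The log2 fold change turned negative in the second table by itself, blocked or not, for COL11A1 (-0.18), COL5A1 (-0.23) and COL4A1 (-0.28). With quantile normalization they were -0.068, -0.12 and -0.13, and with limma-voom -0.21, -0.24 and -0.30. COL6A3 had -0.026 and COL4A5 -0.014 with limma-voom. Over the leave-outs, values lay between -0.014 and 0.78 for COL12A1, -0.036 and 1.08 for COL6A3, -0.32 and 0.68 for COL11A1, -0.23 and 0.40 for COL5A1, -0.28 and 0.48 for COL4A1, -0.53 and 0.36 for COL4A2, -0.10 and 0.43 for COL4A5 and -0.49 and 0.67 for COL9A2. No depth could be recovered for replicate 1, so the counting error of its low values is unknown.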

Other observations

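Several collagen genes had values that belong to no comparison above. COL11A2, a chain of type XI, was at 1.75 and 0.682 FPKM in WT and clone in the first table and listed at 0 in all 4 libraries of the second. Such a gap between the tables was not particular to it. Of the collagen receptors, DDR1 had 46.6 and 55.7 FPKM in the first table and at most 0.147 in the second. GP6 had 7.94 and 4.04 in the first and 0 throughout the second. The cause was not tested. COL8A2 had 0.0171 and 0.429 FPKM in WT and clone of replicate 1, 33 and 78 reads in replicate b (ratio 2.64, 95% exact interval 1.74 to 4.10) and 21 and 12 reads in replicate c (0.644, 0.289 to 1.37). COL5A3, another chain of type V, had 0.320, 0.255 and 0.379 FPKM in WT and 0.434, 0.503 and 1.01 in the clone, and COL15A1 had 0.419, 0.198 and 0.136 in WT and 0.853, 0.323 and 0.380 in the clone. Both were higher in the clone in all 3 replicates and below the filter.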
